A study of Mus musculus with 12 samples.

Results

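The comparison of high glucose with control, both without DZNep, covered 9760 genes in cultured mouse podocytes. The members were all genes that 3 or more of the 6 arrays detected (detection p under 0.05), out of 19057 genes with 1 symbol on the array. The detection p is the array software's test of a probe against its background probes. Podocytes are the epithelial cells that wrap the capillaries of the kidney glomerulus, and total RNA was measured on Illumina mouse expression arrays. High glucose cells had 48 h of high glucose and no DZNep, and control cells had neither, with 3 arrays each. The other 6 arrays of the series, used here for the spread and for a comparison at the end, were of cells given high glucose plus DZNep and of cells given DZNep, with 3 arrays each after 48 h. The series title calls DZNep an EZH2 inhibitor; EZH2 is the histone H3 lysine 27 methyltransferase. The labels give neither the glucose concentration nor the name of the cell line, and no culture with another osmolyte is among the 4 groups. Whether the replicates came from separate cultures is not stated, so the p-values speak only of the spread among these arrays, which may be technical.

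Podocytes hold the filtration barrier with foot processes joined by a slit diaphragm, and their injury is a known part of diabetic kidney disease. Glucose that enters a cell is phosphorylated, and the transcription factors MondoA and ChREBP, with their partner Mlx, then raise genes such as Txnip, whose product binds thioredoxin and limits glucose uptake. High glucose is also known in kidney cells to engage TGF-beta signalling and matrix synthesis, and a rise in osmolarity acts through the factor NFAT5.

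Between 38.9% and 40.2% of probes were detected on the high glucose arrays and between 38.9% and 41.3% on the control arrays. Of the 9760 genes, 8905 were detected on all 6 arrays, 568 on 4 or 5 and 287 on 3, and 23 passed the filter through the high glucose arrays alone and 17 through the control arrays alone. Control replicate 3 stood apart: on the first principal component of the 6 arrays, with 45.27% of the variance, it lay at -22.81, against 6.01 to 12.23 for the high glucose arrays and -0.73 and -3.98 for the other control arrays. The median SD of a gene was 0.10 (log2) among high glucose arrays and 0.13 among control arrays, or 0.08 without control replicate 3. The podocyte label was checked against 40 genes of the slit diaphragm and cytoskeleton, of which 23 were measured. Synaptopodin (Synpo) averaged 13.29 ± 0.05 in high glucose and 13.31 ± 0.16 in control, and nephrin (Nphs1) 11.64 ± 0.04 in high glucose and 11.38 ± 0.08 in control (log2 intensity, SD, n = 3 each). Probes of the podocyte genes Ptpro, Tcf21 and Foxc2 were detected on none of the 6 arrays. Markers of other cells differed by type. Of 12 endothelial markers 4 were measured and 7, Pecam1 and Cdh5 among them, were detected on none of the 6 arrays; of 12 leukocyte markers 1 was measured, and Ptprc was detected on none. All 10 parietal epithelial markers were measured, with a summed intensity of 9351 to 9771 in high glucose and 9335 to 10004 in control. Of 14 tubular markers 8 were measured, and Umod, Cubn and Slc34a1 were detected on none, while Cdh16 averaged 13.84 in high glucose and 13.50 in control (log2 intensity). Of 12 mesangial, smooth muscle and fibroblast markers 4 were measured. The 11 on the array, 6 of them detected on none of the 6 arrays, were summed. This sum was 1022 to 1086 in high glucose and 946 to 1014 in control, with no overlap. The part of these markers in the changes with high glucose was not tested.

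High glucose changed few genes past the test. Aqp1, Slco4a1, Inmt and Fgf10 were among the genes that rose, and the condensin genes Ncapg2, Smc4 and Smc2 were among those that fell. In all 29 genes were higher (0.297% of the genes tested) and 13 lower (0.133%), or 42 (0.43%), at an adjusted p under 0.05 in limma's linear model of the 12 arrays with Benjamini-Hochberg adjustment. Changes were modest, with 4 of the 42 at least 2-fold, and the median change of all genes was 0.03 (log2). The 42 calls lean on the spread pooled over 4 groups: a limma fit of the 6 arrays alone called 1 gene, Aqp1, while 1452 genes had an unadjusted p under 0.05 in it, against 1888 (19.3%) in the fit of 12 arrays, of which 1133 were higher (11.6%) and 755 lower (7.74%). The groups did not overlap for 2101 genes (21.5%), with 1295 higher (13.3%) and 806 lower (8.26%), and the 42 were among them.

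The count of calls also moved with single arrays. It was 8, 9 and 9 without high glucose replicate 1, 2 and 3, and 90, 46 and 10 without control replicate 1, 2 and 3. Without an array of high glucose plus DZNep it was 13, 15 and 12, and without one of DZNep 72, 19 and 28, in replicate order. Prss35, Slco4a1, Aqp1, Inmt, Fgf10, Pcnx and Ncapg2 were called without any single array, and 30 of the 42 were called in fewer than 6 of the 12 such fits. These fits kept the filter and the normalization made with all arrays. Prss35 had passed that filter through the high glucose arrays alone, so its calls are no separate support. All 42 kept their direction in every one of the 25 alternative settings that measured them. In the 12 single-array fits this was fixed in advance, since the groups of each gene did not overlap. The other settings reuse the arrays on which the 42 were selected, so the kept direction is no separate support.

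**Figure D1:**
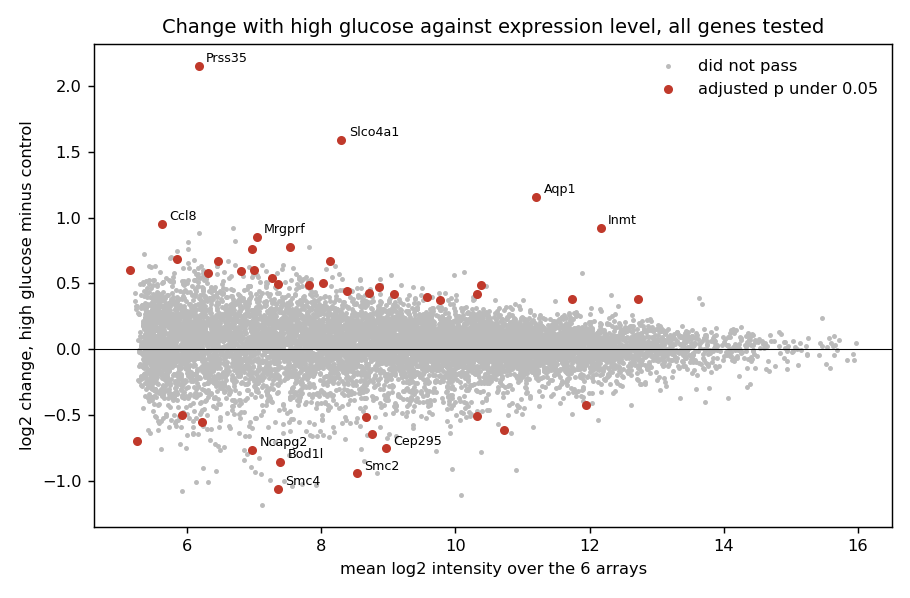
Change with high glucose for the 9760 genes tested: the horizontal axis is the mean log2 intensity over the 6 arrays and the vertical axis is the log2 change, high glucose minus control. Red points are the 42 genes with an adjusted p under 0.05; they lie between -1.06 and 2.15, at low and high intensity alike.

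Channels and transporters of the plasma membrane were among the rises. Aqp1, the water channel of proximal tubule and endothelium, had log2 intensities of 11.87, 11.68 and 11.81 in high glucose, against 10.66, 10.60 and 10.62 in control. Every high glucose array lay about 1 log2 unit above every control array, and the change of 1.16 ± 0.10 (SE; 2.23-fold) had an adjusted p of 0.0015 in limma's test. Both other probes of Aqp1 changed alike, by 1.13 and 1.23, each with an adjusted p of 0.00115 over all probes. In bulk RNA a change in the share of cells that express a gene and a change per cell cannot be told apart. Slco4a1, an organic anion transporter that carries thyroid hormones, had 9.50, 8.83 and 8.96 in high glucose and 7.63, 7.44 and 7.45 in control. It changed by 1.59 ± 0.19 (3.02-fold, limma adjusted p = 0.00536), with high glucose replicate 1 the highest. Cacna1d, the pore subunit of an L-type calcium channel, rose by 0.58 ± 0.11 (limma adjusted p = 0.0473). Cacna1g, of a T-type channel, rose by 0.47 ± 0.09 (limma adjusted p = 0.0473); it is named after its value was seen. Neither calcium channel gene was called without control replicate 3 or any one high glucose array. Of 10 measured aquaporins and solute transporters of the kidney, Aqp1 and Slco4a1 rose and 8 did not pass, where 0.43% of all genes were called. The list median was 0.13 (log2), against 0.03 for all genes. The 8 included Aqp5 at 0.32 and the sodium pump subunit Atp1b1 at 0.24. Members of the list were chosen with earlier results of these data known, so its count and median are no independent evidence.

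Inmt, an N-methyltransferase of indoleamines that uses S-adenosylmethionine, was among the brightest of the changed genes. It had 12.80, 12.42 and 12.67 in high glucose and 11.66, 11.77 and 11.69 in control, a change of 0.92 ± 0.11 (1.90-fold, limma adjusted p = 0.00536). Its other probe changed by 1.06 (limma adjusted p = 0.00232). In the RefSeq gene order of mouse assembly GRCm38.p6, Inmt and Aqp1 lie on chromosome 6 with 1 protein-coding gene, Mindy4, between them, and they were the only pair among the 42 genes with so few between. Mindy4 itself was detected on 0 of the 6 arrays, and so were Ghrhr, Adcyap1r1 and Crhr2 nearby, while the 2 probes of the neighbouring Gars were detected on 6 and 5 arrays. Among the 15 measured genes of the methionine cycle and polyamines, Inmt was the only one called. The S-adenosylhomocysteine hydrolase Ahcy, an enzyme that DZNep is known to block, changed by 0.09 and the cystathionine synthase Cbs by 0.51, and neither passed.

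**Figure D2:**
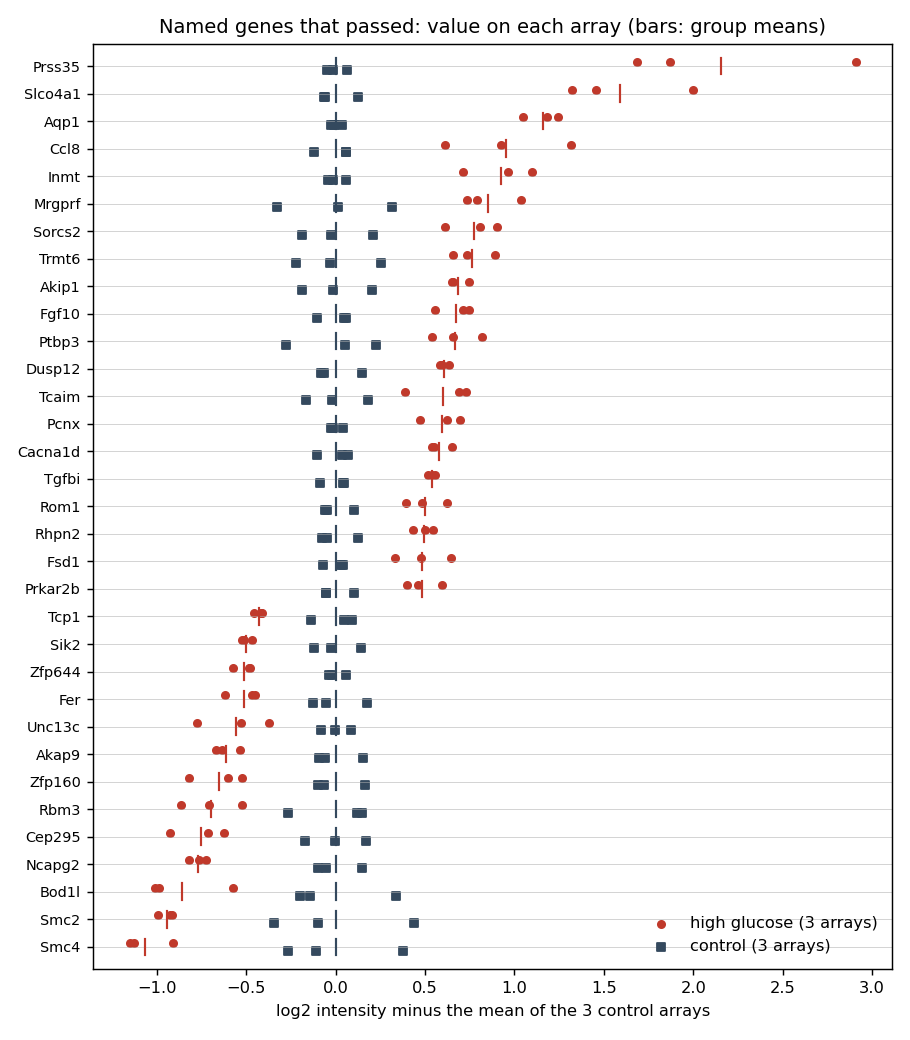
Log2 intensity on each array minus the mean of the 3 control arrays, for the 20 genes with the largest rises and the 13 that fell; circles are high glucose arrays, squares control arrays and bars group means. No circle overlaps the squares of its gene, and control replicate 3 is the rightmost square in 9 of the 13 genes that fell.

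Secreted proteins formed another group of the rises. Prss35, of the trypsin-like serine protease family, had 8.01, 6.97 and 6.78 in high glucose and 5.05, 5.09 and 5.16 in control. It was not well above background on any control array and passed the filter through the high glucose arrays alone, so that it had to differ between the groups. The rise is given as at least 3.57-fold (limma adjusted p = 0.00536). Such a bound sets the mean of the bright group against the lowest signal of a detected probe. High glucose replicate 1 stood 1 log2 unit over the other replicates. The chemokine Ccl8 passed the filter in the same way: it had 6.46, 5.76 and 6.07 in high glucose, no control array had it well above background, and it was at least 1.60-fold higher (limma adjusted p = 0.0469). Fgf10, a ligand of the receptor Fgfr2, had 8.52, 8.55 and 8.36 in high glucose and 7.85, 7.86 and 7.70 in control, a rise of 0.67 ± 0.07 (1.59-fold, limma adjusted p = 0.00501). Its other probe rose by 0.71 (limma adjusted p = 0.00668). The probes of Fgfr2 disagreed: the brighter, which stood for the gene, changed by 0.18 and did not pass, and the dimmer fell by 0.67 (limma adjusted p = 0.0196 over probes). Of 11 measured fibroblast and vascular endothelial growth factor genes Fgf10 was the only one called, and Vegfa, the podocyte's signal to the capillary, changed by 0.26 (limma adjusted p = 0.189).

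Tgfbi, a matrix protein that TGF-beta induces, had 7.55, 7.54 and 7.51 in high glucose and 6.91, 7.04 and 7.04 in control. The groups were tight and apart, with a rise of 0.54 ± 0.09 (1.45-fold, limma adjusted p = 0.0358). The call was lost without control replicate 2 or 3, without high glucose plus DZNep replicate 1 and without any one high glucose array, with an adjusted p of up to 0.116. The other 20 measured genes of the TGF-beta pathway did not pass: the receptor Tgfbr1 changed by -0.32, the latent TGF-beta binding protein Ltbp1 by 0.34, and Ccn2, a matricellular target, by 0.07. The list median was 0.04 (log2), against 0.03 for all genes. None of 31 matrix and fibrosis genes passed, where 0.43% of all genes did, so the count says nothing particular of the list; its median was 0.09. Their smallest p-values were those of the protease inhibitor Timp3 at 0.22, the basement membrane chain Col4a4 at 0.30 and nidogen Nid1 at 0.32.

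Txnip, the arrestin-like protein that MondoA controls, had 12.87, 12.91 and 12.97 in high glucose and 12.49, 12.61 and 12.51 in control. No control array reached the high glucose arrays, and the rise was 0.38 ± 0.06 (1.30-fold, limma adjusted p = 0.0322). Its other probe changed by 0.40 (limma adjusted p = 0.0554 over probes). The call was lost without control replicate 3 and without any one array of high glucose or of high glucose plus DZNep, and its change lay between 0.35 and 0.42 over the 25 alternative settings. Arrdc4, the paralogue that MondoA also controls, changed by -0.23 ± 0.10 (limma adjusted p = 0.248), with 8.99, 9.06 and 9.02 in high glucose and 9.18, 9.14 and 9.44 in control. The promoters of both genes are shown from the RefSeq table of GRCm38.p6, as the 250 bases before the start site on the gene's strand. Capitals mark in Txnip a direct repeat of CACGAG with 5 bases between, chr3:96557707-96557956 on the + strand. Such a repeat has the letters of a carbohydrate response element of the kind the factor is known to bind. In Arrdc4 they mark a lone E-box CACGTG, which is not such a repeat, chr7:68749239-68749488 on the - strand.
Txnip: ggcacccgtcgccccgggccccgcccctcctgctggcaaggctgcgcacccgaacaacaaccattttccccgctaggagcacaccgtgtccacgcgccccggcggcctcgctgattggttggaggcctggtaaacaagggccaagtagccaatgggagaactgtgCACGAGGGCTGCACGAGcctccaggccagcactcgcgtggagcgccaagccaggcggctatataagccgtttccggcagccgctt
Arrdc4: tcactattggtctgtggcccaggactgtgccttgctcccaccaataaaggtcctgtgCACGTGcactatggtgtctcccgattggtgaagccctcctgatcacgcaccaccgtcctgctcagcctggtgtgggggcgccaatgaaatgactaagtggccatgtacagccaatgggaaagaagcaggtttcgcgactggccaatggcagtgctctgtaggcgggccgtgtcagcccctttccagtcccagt
The repeat CACGAGNNNNNCACGAG, searched on both strands of windows from 250 bases before to 50 after the start site, was in the promoters of 1 of 27025 genes, Txnip, starting 85 bases before its start site. The E-box CACGTG was in 8.09% of all these genes and in 11.8% of the 7944 tested genes with a promoter, and in Arrdc4 it started 193 bases before the start site. It was in 2 of 22 genes called higher (9.09%), Akip1 and Prkar2b. The repeat was searched with the letters that the Txnip promoter itself holds, so the search had to find Txnip. That no other gene matched is therefore no support for a site. A match of letters does not show a bound site.

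Of 12 measured MondoA and ChREBP targets, Txnip rose and 11 did not pass, with a median of 0.08 (log2). The fatty acid desaturase Scd1 was at 0.42 (limma adjusted p = 0.0800), with 9.95, 9.96 and 9.98 in high glucose and 9.73, 9.50 and 9.39 in control. Fatty acid synthase Fasn was at 0.30, the elongase Elovl6 at -0.21 and ATP citrate lyase Acly at -0.04. Without control replicate 3 this list, the thioredoxin list and the TGF-beta list held no called gene. Of 22 fatty acid synthesis and oxidation genes none passed, with a median of -0.03, 10 above 0 and the lowest, the dehydrogenase Acadl, at -0.68. Srebf1, the factor that drives fatty acid synthesis, missed the test at 0.55 ± 0.11 (limma adjusted p = 0.0563), and so did malic enzyme Me1 at 0.50 ± 0.10 (limma adjusted p = 0.0604). The groups did not overlap for Scd1, Srebf1 or Me1, but neither did they for 21.5% of all genes tested, so this does not set the 3 apart. Of 22 glycolysis and glucose transport genes none passed: the glucose transporter Slc2a1 changed by 0.05, hexokinase Hk1 by 0.34 and phosphofructokinase Pfkp by -0.38. None of 13 genes of the polyol, hexosamine and pentose phosphate routes passed either. Uap1, which makes UDP-N-acetylglucosamine, was at 0.58 (limma adjusted p = 0.0791). Aldose reductase Akr1b3 was not analysed here. Among 11 osmotic stress and NFAT5 targets Aqp1 was the only one called, with a median of 0.15. Nfat5 itself was at -0.10, the taurine transporter Slc6a6 at 0.12, the kinase Sgk1 at 0.21 and S100a4 at 0.55. At an unadjusted limma p under 0.05, 4 of the 11 were higher and 0 lower, against 11.6% and 7.74% of all genes. This list too was chosen with earlier results of these data known.

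**Figure D3:**
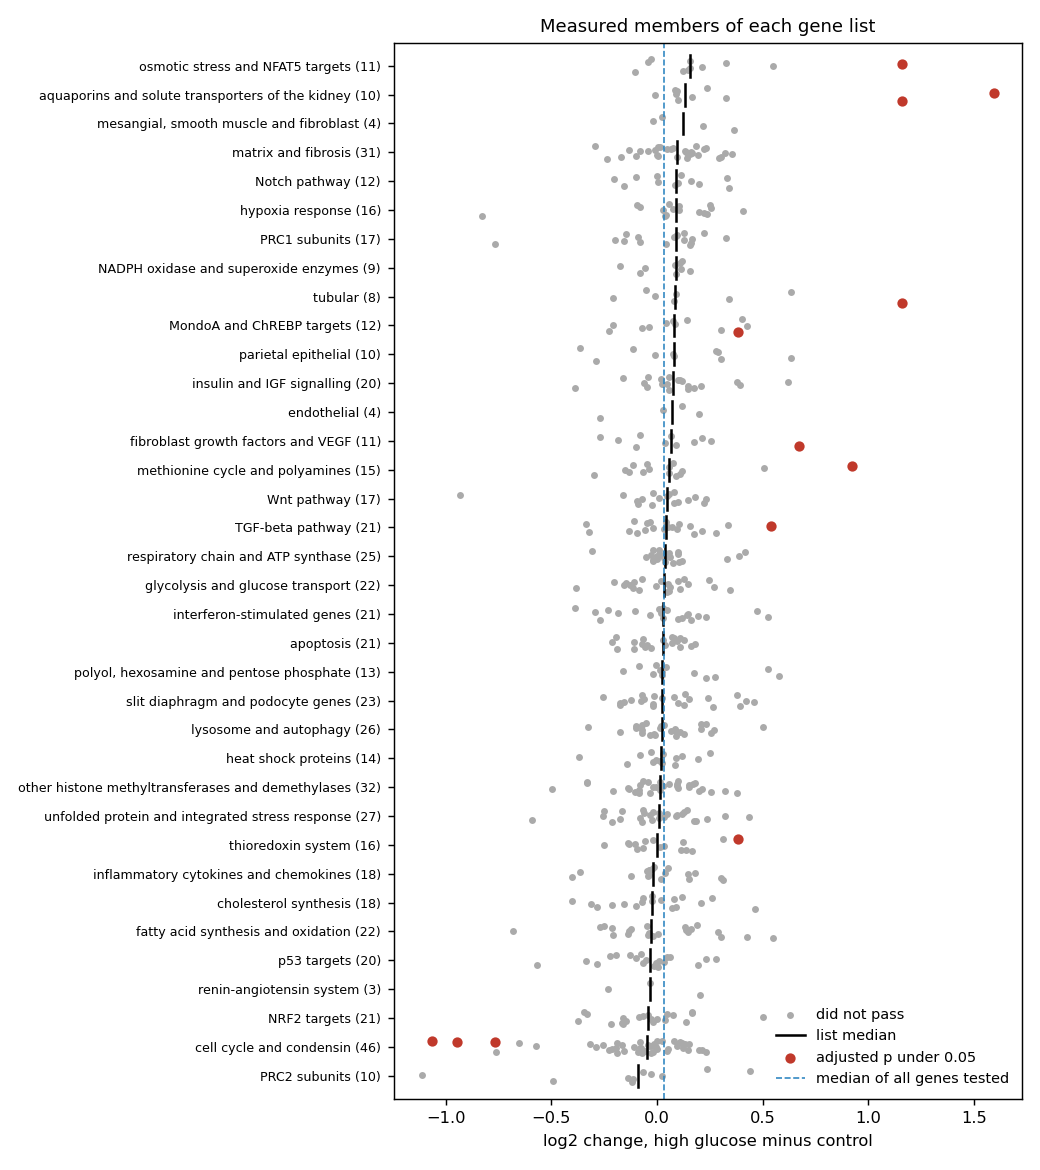
Log2 change, high glucose minus control, of each measured member of the gene lists with at least 3 measured members (number in brackets); red points passed the test, black bars are list medians and the dashed line is the median of all genes, 0.03. List medians run from -0.09 for PRC2 subunits to 0.15 for osmotic stress and NFAT5 targets, and most lists hold no red point.

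Several receptors and signalling genes rose. Mrgprf, an orphan G protein-coupled receptor, changed by 0.85 ± 0.16, and Sorcs2, a sorting receptor that binds proneurotrophins, by 0.77 ± 0.13. Sorcs2 had 7.96, 7.76 and 8.05 in high glucose and 7.12, 7.36 and 6.96 in control. Akip1, which binds protein kinase A, rose by 0.69 ± 0.12, and Prkar2b, a regulatory subunit of that kinase, by 0.48 ± 0.08. Dusp12, an atypical dual specificity phosphatase, was not well above background in control and rose by at least 1.03-fold; it too passed the filter through the high glucose arrays alone. RNA handling genes among the rises were Trmt6, a subunit of the tRNA adenosine methyltransferase, at 0.76 ± 0.12, and the splicing regulator Ptbp3 at 0.67 ± 0.12. The mitochondrial protein Tcaim rose by 0.60 ± 0.11, the membrane protein Pcnx by 0.60 ± 0.07, the tetraspanin Rom1 by 0.50 ± 0.09 and the microtubule-associated Fsd1 by 0.49 ± 0.08. Their adjusted p-values in limma's test lay between 0.00706 for Pcnx and 0.0473. Of these genes Pcnx alone was called without any single array. The 9 smaller rises, Txnip and Cacna1g included, lay between 0.37 and 0.47.

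Of the 13 genes that fell, 3 encode condensin subunits. Condensins are ring-shaped complexes that compact chromosomes for mitosis, built on the ATPases Smc2 and Smc4 with further subunits. Smc4 had 6.76, 6.74 and 6.98 in high glucose and 7.78, 7.62 and 8.27 in control, and fell by 1.06 on the log2 scale (SE 0.15, limma adjusted p = 0.0234). Smc2 had 8.08, 8.01 and 8.09 in high glucose and 8.91, 8.66 and 9.45 in control, and fell by 0.94 (SE 0.16, limma adjusted p = 0.0398). Ncapg2, a subunit of condensin II, had 6.59, 6.63 and 6.54 in high glucose and 7.26, 7.30 and 7.50 in control, and fell by 0.77 (SE 0.08, limma adjusted p = 0.00501). Control replicate 3 was the highest array for all of them. Ncapg2 was called without any single array, and Smc4 without any but high glucose replicate 1 or 2. Smc2 was less firm and was called in 3 of the 12 such fits, in none of those without a high glucose array. Without control replicate 3 Smc4 changed by -0.87 and was called, and Smc2 changed by -0.72 with a limma adjusted p of 0.0646. Probes of these genes disagreed in size: the other probes of Smc4 changed by -0.05 and -0.24 and that of Ncapg2 by -0.29, and none passed.

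Among the other condensin subunits, Ncapg was at -0.65 and Ncapd3 at -0.19, while Ncapd2 was at 0.12, Ncaph2 at 0.11 and Ncaph at -0.08, and none passed. In the list of 46 measured cell cycle and condensin genes 3 fell, 0 rose and 43 did not pass, with a median of -0.05 (log2) against 0.03 for all genes. The list was extended with condensins knowing that Ncapg2 had fallen, so its count is no independent evidence. Topoisomerase Top2a was at -0.57 (limma adjusted p = 0.0768), the mitotic kinesin Kif11 at -0.32, Cdk1 at -0.09 and the replication helicase subunit Mcm2 at 0.15. Promoters of Smc2 and Ncapg2 are shown from the same RefSeq table, because many cell cycle genes hold the element TTTGAA close to the start site. They span the 250 bases before the start site on the + strand at chr4:52438971-52439220 and chr12:116405186-116405435, and capitals mark TTTGAA or its reverse complement TTCAAA.
Smc2: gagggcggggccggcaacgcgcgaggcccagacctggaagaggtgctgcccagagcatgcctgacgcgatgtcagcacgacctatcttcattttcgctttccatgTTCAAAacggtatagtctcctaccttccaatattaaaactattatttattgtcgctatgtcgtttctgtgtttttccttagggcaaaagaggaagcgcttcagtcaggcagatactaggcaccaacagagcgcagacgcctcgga
Ncapg2: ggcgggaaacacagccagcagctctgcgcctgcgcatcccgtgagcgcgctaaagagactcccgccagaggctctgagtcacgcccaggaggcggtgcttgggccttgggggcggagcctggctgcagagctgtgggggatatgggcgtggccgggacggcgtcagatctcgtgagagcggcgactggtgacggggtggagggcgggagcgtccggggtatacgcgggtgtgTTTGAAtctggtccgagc
The match in Smc2 starts 145 bases and that in Ncapg2 18 bases before the start site, and Smc2 has another after the start site. TTTGAA, read on both strands, was in 20.2% of all genes with a promoter and in 13.8% of the tested genes. It was in 15 of 38 cell cycle genes with a promoter (39.5%) and in 3 of 11 genes called lower (27.3%), among them Cep295. Smc2 and Ncapg2 themselves count in both of these sets. Both motif and genes were chosen after their values were seen.

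**Figure D4:**
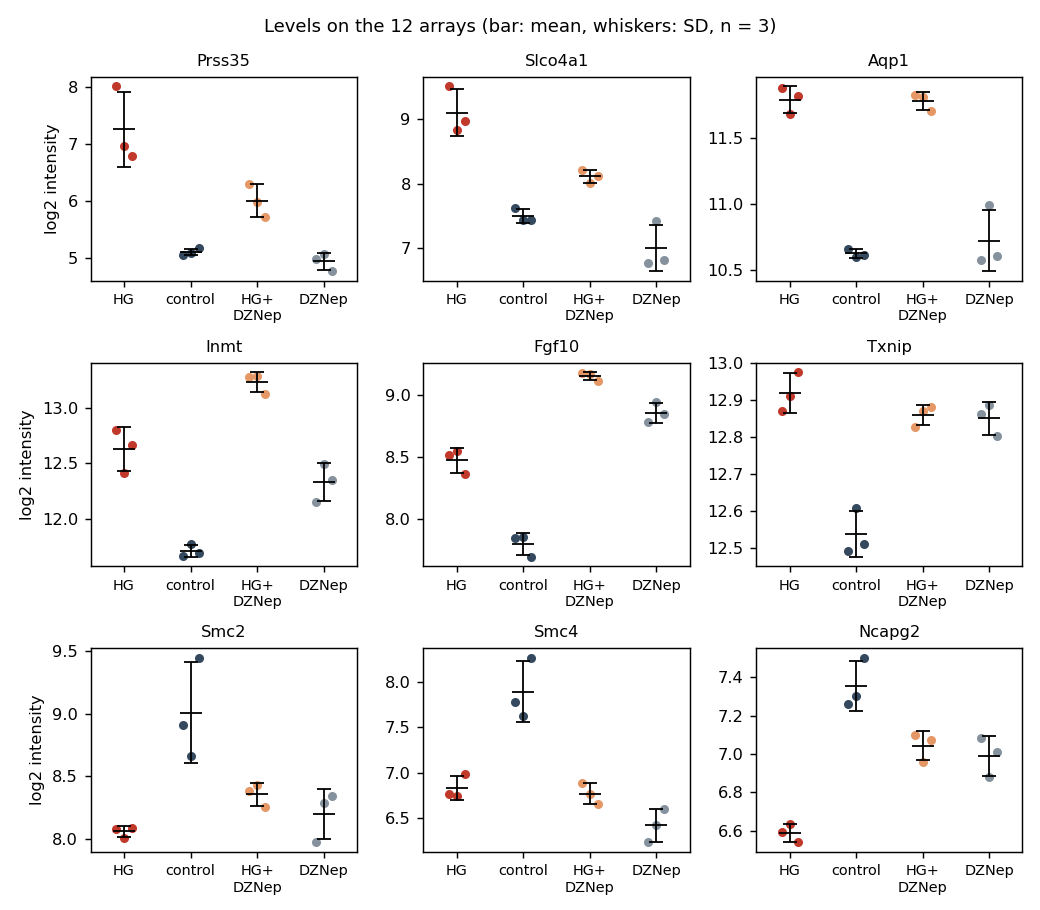
Log2 intensity on each of the 12 arrays for 9 changed genes, in high glucose (HG), control, high glucose plus DZNep and DZNep; bars are means and whiskers SDs (n = 3), and each panel has its own vertical scale that does not start at 0. Aqp1 is higher with high glucose in both pairs, and Txnip is higher in the pair without DZNep.

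Other genes that fell included centrosome and kinase genes. Cep295, a centriole protein, had 8.73, 8.42 and 8.64 in high glucose and 9.52, 9.18 and 9.34 in control, and fell by 0.75 (SE 0.11, limma adjusted p = 0.0286). Akap9, which anchors protein kinase A at the centrosome and Golgi, had 10.39, 10.36 and 10.50 in high glucose and 10.97, 10.93 and 11.18 in control, and fell by 0.61 (SE 0.10, limma adjusted p = 0.0305). Its other probes changed by -0.63 and -0.76, while that of Cep295 changed by -0.27. Of the 42 genes 17 had another detected probe, which was under 0.5 times the change or of opposite sign for 8 of them and passed in the same direction for 3. Among the weaker ones were those of Sorcs2 at 0.27, Tcaim at 0.15 and Cacna1g at 0.12, and 1 of the other probes of Fer at -0.13. Bod1l, which protects replication forks, had 7.25, 6.81 and 6.84 in high glucose and 7.68, 7.62 and 8.16 in control, and fell by 0.86 (SE 0.15). The tyrosine kinase Fer fell by 0.51, the salt-inducible kinase Sik2 by 0.50, the chaperonin subunit Tcp1 by 0.43 and Unc13c, known from synaptic vesicle priming, by 0.56. The zinc finger genes Zfp160 and Zfp644 fell by 0.65 and 0.51. Rbm3, the cold-inducible RNA-binding protein, was not well above background on any high glucose array and was at least 1.12-fold lower; it passed the filter through the control arrays alone. The largest of these adjusted p-values in limma's test was 0.0473. Of the 13 genes that fell, Ncapg2 alone was called without any single array.

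Some of the largest differences did not pass the test. Ddx5, an RNA helicase, was at -1.18, with 7.21, 6.48 and 5.90 in high glucose and 7.19, 7.40 and 8.55 in control. The control arrays spanned more than the difference between the groups, and the SD was 0.66 in high glucose and 0.73 in control. Rbbp7, a histone-binding subunit of PRC2 and other complexes, was at -1.11, the receptor tyrosine kinase Met at -1.08, Shcbp1 at -1.04, Gulp1 at -1.03, Adss at -1.03, Zfp930 at -1.01, the signal recognition particle subunit Srp54a at -1.01 and Rnf13 at -1.01. For each of them control replicate 3 was the highest array. Without it Ddx5 was at -0.76, Rbbp7 at -0.67 and Met at -0.68. On the higher side the phosphatase Ptprb was at 0.92, the orphan receptor Gpr153 at 0.88, the ciliary Cfap20 at 0.82 and the LIM protein Csrp1 at 0.81, and none passed.

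No podocyte or PRC2 gene was called, a count that cannot set lists of this size apart at 0.43% of all genes called. Of 23 measured slit diaphragm and podocyte genes 12 were above 0, and the list median was 0.03 (log2). Nphs1 came nearest at 0.27 ± 0.06 (limma adjusted p = 0.0768), with 11.62, 11.68 and 11.62 in high glucose and 11.34, 11.31 and 11.47 in control. Synpo was at -0.02 ± 0.09. The summed intensity of the 36 list genes on the array ran from 58010 to 64219 in high glucose and 57290 to 63654 in control. The groups thus overlapped. Ezh2 had 10.79, 10.66 and 10.78 in high glucose and 11.34, 11.00 and 11.37 in control. It was at -0.49 ± 0.09 and just missed the test (limma adjusted p = 0.0520), and its dimmer probe was at -0.14. Of the other 9 measured PRC2 subunits none passed, with Suz12 at -0.14, Eed at -0.11 and Phf19 at 0.44.

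In all, 28 of 37 lists held no called gene, which is no result about them at a share of 0.43% over all genes, among them those of NRF2 targets, cholesterol synthesis, unfolded protein response, p53 targets, apoptosis, hypoxia, inflammation and interferon response. In the Wnt list Apc, which restrains beta-catenin, was at -0.93 (limma adjusted p = 0.0602). Among inflammatory genes the chemokine Ccl2 was at 0.31 and the adhesion receptor Vcam1 at -0.37. Of 8 measured tubular markers Aqp1 rose and 7 did not pass. The list median was 0.08 (log2), with 5 of the 8 above 0 and the lowest at -0.21. The summed intensity of the 14 on the array was 21665 to 22829 in high glucose and 16832 to 17527 in control. The sum of the 7 measured markers other than Aqp1 was 18437 to 19134 in high glucose. It was 15317 to 15973 in control, again with no overlap. These sums cover different members and mostly follow the brightest gene, so they do not show that the markers rose together. Cadherin Cdh16, the brightest of these 7 markers, was at 0.34 (limma adjusted p = 0.0768). Pax8 was at 0.63, while its other probes were at -0.32 and -0.11. The part of these markers in the rise of Aqp1 was not tested. The 12 endothelial markers on the array, detected or not, summed to 551 to 581 in high glucose and 513 to 596 in control.

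The same question was then asked with DZNep present, in arrays whose means the first comparison does not use. Both comparisons share the normalization and the spread of each gene over the 12 arrays, so a call in both is not fully separate support. High glucose plus DZNep against DZNep gave 9 calls (0.0922%) in the same limma fit. Aqp1, Inmt and Tgfbi were called in both. Aqp1 had 11.82, 11.81 and 11.70 in high glucose plus DZNep and 10.58, 10.99 and 10.61 in DZNep, a change of 1.05 ± 0.10 (limma adjusted p = 0.00213). Inmt had 13.28, 13.30 and 13.13 in high glucose plus DZNep and 12.15, 12.49 and 12.35 in DZNep, a change of 0.91 ± 0.11 (limma adjusted p = 0.0110). Tgfbi had 6.07, 6.02 and 6.34 in high glucose plus DZNep and 5.32, 5.12 and 5.28 in DZNep, a change of 0.90 ± 0.09 (limma adjusted p = 0.00213). These DZNep values were about as low as those of Rpe in control, 5.25, 5.36 and 5.10, which no control array detected. The size of the Tgfbi change with DZNep is therefore uncertain, and its call there carries that limit. Slco4a1 was at 1.11 ± 0.19 without passing. Prss35 had 6.30, 5.98 and 5.72 in high glucose plus DZNep and 4.98, 5.06 and 4.76 in DZNep, as low as the control arrays, so that no difference is given. Txnip was at 0.01 ± 0.06, and the difference of its changes, -0.37 ± 0.09, did not pass (limma adjusted p = 0.0984).

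Of the 29 genes that rose without DZNep, 24 were above 0 with it, and of the 13 that fell, 3 were below 0. The changes with and without DZNep correlated at r = 0.41 (Spearman 0.27) over the 42 genes and at r = -0.118 (Spearman -0.101) over all 9760, as a description across genes, which are not independent replicates and were read on the same arrays. The change itself differed between the pairs for 7 genes (0.0717%), and 4 of them were among the genes that fell: Bod1l, Smc4, Akap9 and Ncapg2. Each had a fall without DZNep and a value above 0 with it. Ncapg2, for example, had 7.10, 6.96 and 7.07 in high glucose plus DZNep and 7.08, 6.88 and 7.01 in DZNep, a change of 0.05 ± 0.08. For Smc2 the difference of the changes was 1.10 ± 0.23 and did not pass (limma adjusted p = 0.0862). The fall without DZNep is itself part of the difference, so the overlap of the 4 genes with those that fell is no separate support. The count of 7 ran from 0 to 57 without 1 array and was 0 with the replicate number as a block.

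**Figure D5:**
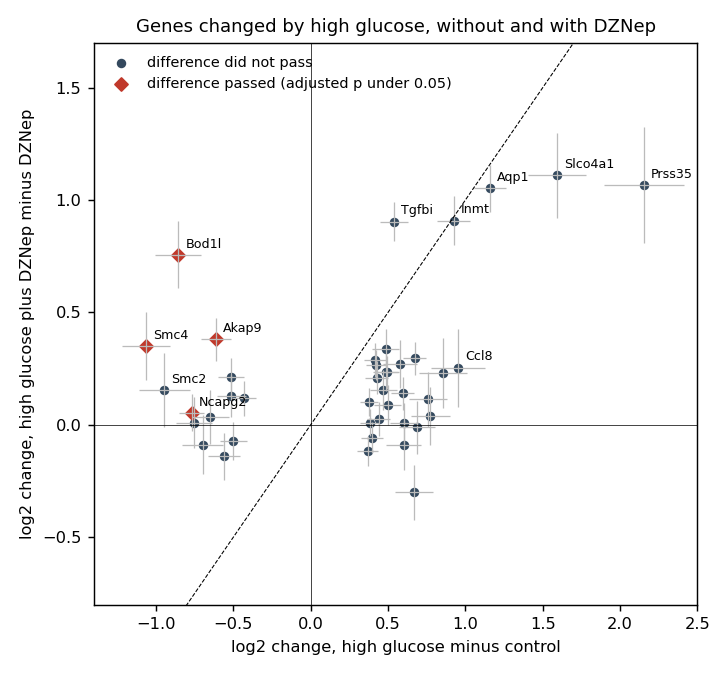
Log2 change with high glucose for the 42 called genes, without DZNep on the horizontal axis and with DZNep on the vertical axis; grey lines are standard errors from the fit, the dashed line marks equal change and red diamonds are the 4 genes whose change differed. Prss35, Ccl8, Dusp12 and Rbm3 are drawn at their measured values, although 1 group of each was not well above background. The DZNep values of Tgfbi were near background too. Aqp1 and Inmt lie near the dashed line, and the red diamonds lie left of 0 and above 0.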

How the data were processed

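Total RNA was extracted with Trizol and columns, and biotin-labelled cRNA was measured on Illumina arrays, per the labels' protocols. Probe intensities were deposited without normalization, each beside its detection p-value, per the file headers. The submitters' processing notes name GenomeStudio without a version. A table of the authors' processed intensity values followed the raw signal of each array linearly and was scaled to a common mean of 568.254; what its offset removed is unknown, and it was used as an alternative.

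The background of all 12 arrays was corrected by means of the detection p-values; they were then given an offset of 16, quantile normalized and log2-transformed by neqc (limma 3.58.1, R 4.3.3). Changes are therefore on a log2(intensity + 16) scale, which understates those of dim genes, and precision is limited by the 3 arrays of each group. Of 45281 probes, 34885 had 1 gene symbol, 18 several and 10378 none, and 34807 gene IDs matched RefSeq. The probe with the highest mean stood for a gene; 3816 genes had several probes. Other probes were tested over all detected probes with 1 symbol. The 4 group means were fitted with lmFit and eBayes (11.46 residual degrees of freedom with the prior), and p-values were adjusted by Benjamini-Hochberg over 9760 genes. SE is from that fit.

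The members, lists and motifs were chosen with earlier results of these data known. Genes named were drawn from the 20 largest rises and 13 falls that passed, the 10 largest changes each way, Txnip, Arrdc4, Ezh2, Slc2a1, Tgfbi, Ccn2, Nphs1, Synpo and Vegfa, and up to 3 members of each list with the smallest p; other list members were named for their role after their values were seen. An item among them is not reported here, and not every list member the rule allows is described. Alternatives changed the arrays fitted, background, offset, centring, filter, probe choice, block, weights and prior. The scripts were tested on simulated data.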

Additional observations from a re-analysis of the deposited data

Results flagged for a closer look

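For 7 genes the change with high glucose differed with and without DZNep by the test of the difference itself in limma (adjusted p under 0.05). The difference is the change with DZNep minus the change without it, on the log2 scale. It was 1.6126 for Bod1l, 1.4138 for Smc4, 0.9921 for Akap9 and 0.8216 for Ncapg2, which fell without DZNep. It was -1.0469 for the haemoglobin chain Hba-a1, -0.7538 for the matrix protein Matn4 and -0.7233 for the ribonuclease Zc3h12a. Hba-a1 changed by -0.76 with DZNep (limma adjusted p = 0.0151) and by 0.29 without it (limma adjusted p = 0.141). Matn4 changed by -0.48 with DZNep (limma adjusted p = 0.0471) and by 0.28 without it (limma adjusted p = 0.0925). Zc3h12a changed by -0.44 with DZNep and by 0.28 without it and passed in neither. An unadjusted p under 0.05 for the difference was held by 1620 genes.

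Probes outside the gene counts were also tested. Of 2695 detected probes with no gene symbol here, 4 were higher and 18 lower in high glucose in limma's test. Over all 18097 detected probes in that test, 40 were higher and 43 lower. The probe ILMN_1244066 had 7.98, 7.75 and 7.75 in high glucose and 7.02, 7.08 and 6.97 in control (0.81, limma adjusted p = 0.00928).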

How the results depend on the processing

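The number of genes that rose, fell and differed with DZNep was 29, 13 and 7. Rises and falls were 1 and 0 in the limma fit of the 6 arrays, also when these were normalized alone; 1452 and 1446 genes then had an unadjusted p under 0.05. Rises, falls and differences were 156, 178 and 166 without background correction, 86, 80 and 14 with an offset of 50, 39, 34 and 46 with array weights, and 153, 171 and 174 with a trended, robust prior. They were 20, 6 and 6 on the authors' values, 9, 5 and 5 with arrays centred on their medians, 7, 3 and 0 without a filter, 28, 17 and 13 for genes detected on all 6 arrays, 21, 8 and 5 for genes detected on 3 of 12, and 31, 20 and 8 with probes averaged. Among calls the share of rises was 69% in the main setting, 46.7% without background correction, 51.8% with an offset of 50, 58.3% with the replicate block, 53.4% with array weights and 47.2% with the trended prior. Without 1 array, rises ran from 6 to 59, falls from 1 to 38 and differences from 0 to 57. With the replicate number as a block they were 14, 10 and 0. The numbers did not pair the arrays: deviations of same-numbered high glucose and control arrays correlated at -0.058, -0.022 and -0.203, and not every array correlated best with its own number. Aqp1 was the only gene called in all 25 settings. Of 1342 values of named genes, 922 kept direction and side of the threshold, 382 lost the call, 34 gained one and 4 turned: Synpo to 0.01585, 0.04262 and 0.007305 without control replicate 1, control replicate 2 and high glucose replicate 1, and Slc2a1 to -0.01226 without high glucose replicate 1. Over all such omissions Synpo ran from -0.109 to 0.04262 and Slc2a1 from -0.01226 to 0.08579. Only a gene called in the main setting can lose a call, and the 922 include values of genes not called there. The 922 of 1342 is thus not the share of calls that held. Of 925 list medians 18 moved by more than their spread. The cause of these shifts was not tested.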

Other observations

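The smaller rises that the rule for named genes left out were chosen here after their values were seen. Chromatin and DNA repair were represented by the linker histone H1f2, which rose by 0.42 ± 0.07 (limma adjusted p = 0.0305), and the DNA dealkylase Alkbh2, which rose by 0.44 ± 0.08 (limma adjusted p = 0.0398). The RNA-binding protein Fxr2 rose by 0.42 ± 0.07 (limma adjusted p = 0.0427), and its other probe changed by 0.62. Bop1, a factor of ribosome assembly, rose by 0.40 ± 0.07 (limma adjusted p = 0.0398), while its dimmer probe changed by -0.13. Frat2, which binds the kinase GSK3, rose by 0.43, the cargo protein Ergic1 of the early secretory pathway by 0.38, and Fam102a by 0.37. With DZNep these 7 genes changed by -0.12 to 0.29 and none passed.

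Genes called with DZNep and not without it were also named after their values were seen. The cathepsin Ctsw changed by -0.69 in high glucose plus DZNep against DZNep (limma adjusted p = 0.0287) and by -0.30 in high glucose against control. Ctsw was dim, with 5.19, 5.41 and 5.06 in high glucose plus DZNep, and only 1 high glucose array detected it, so these sizes are uncertain. The cadherin Cdh26 changed by -0.82 with DZNep and by -0.02 without it, Ms4a10 by -0.63 with DZNep and 0.07 without it, and the zinc finger gene Cxxc5 by 0.70 with DZNep and -0.09 without it. The test of the difference did not pass for these genes.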
